A study of Mus musculus with 4 samples.

Results

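The cells described here are 2141 mesenchymal cells of the mouse molar that carried UMIs of Bmper, Fxyd7, C1qtnf3 and Bmp3, out of 42164 kept cells, and they are called 4-marker cells below. They were selected on measured values, by a rule written to find cells of the dental follicle. A kept cell had at least 1000 UMIs (molecular tags, each counted once per RNA molecule), and under 10% of them came from mitochondrial genes. A 4-marker cell had at least 3 UMIs of the 4 marker genes from at least 2 of them, at least 5 UMIs of Col1a1, Col1a2 and Col3a1, no UMI of the epithelial genes Epcam and Cdh1, of the endothelial gene Pecam1 or of the immune gene Ptprc, and at most 1 UMI of the bone and dentin genes Ibsp, Bglap and Dspp. Cells that met every limit except the one on the 4 markers are called eligible mesenchyme, 20612 cells in all, and those of them with 0 UMIs of the 4 markers are called other mesenchyme. Since the 4 genes chose the cells, their levels and the contrast with other mesenchyme are given as a description.

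The study dissociated molar tooth organs of wild-type mice (genotype label WTB6) and sequenced the single cells in 4 libraries: maxillary and mandibular molars of E15.5 embryos, whose age label is E15, and of pups at P1. Each library pooled 6 tooth organs or animals, and there was 1 library per stage and jaw, so no difference between stages or jaws could be tested against a replicate. The libraries held 109723360 UMIs (E15.5 maxillary), 86659227 (E15.5 mandibular), 128812956 (P1 maxillary) and 139873101 (P1 mandibular). The level of a gene in a group of cells is its summed UMIs per 1000000 UMIs of the group (CPM). Square brackets hold 95% limits that cover counting error only, taken from the exact binomial distribution for ratios and shares (Clopper-Pearson) and from the Poisson distribution for levels. With pooled tissue, fewer cells of a kind and less RNA per cell cannot be told apart in a summed level.

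The P1 libraries share 7131 barcodes, 38.1% of the maxillary and 36.8% of the mandibular barcodes, against 28 to 70 barcodes in the other 5 pairs of libraries. The shared barcodes had a median log2 ratio of 2.07 between their maxillary and mandibular UMIs, and 5th and 95th percentiles of 2.003 and 2.185. They were left out of the P1 mandibular library and kept in the P1 maxillary one. From which of these libraries the cells came cannot be told apart here, so the P1 maxillary levels may hold mandibular cells. Of the 326 P1 maxillary 4-marker cells, 216 had a shared barcode, with a median of 11456 UMIs, and 110 did not, with a median of 3328.5 UMIs. Of the barcodes left out of the P1 mandibular library, 79 met the rule there, and 68 of these were 4-marker cells in the P1 maxillary library.

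The dental follicle is the loose sac of neural crest-derived mesenchyme around the enamel organ and the dental papilla. Its cells give rise to cementoblasts, to fibroblasts of the periodontal ligament and to osteoblasts of the alveolar bone, and it directs eruption through signals to bone-resorbing cells. Bmper (mm10 chromosome 9, 23223076 to 23485200, plus strand) encodes a secreted protein that binds BMPs and tunes their activity. Bmp3 (chromosome 5, 98854415 to 98884396, plus strand) encodes a BMP family ligand that opposes osteogenic BMPs. Fxyd7 (chromosome 7, 31042513 to 31051467, minus strand) encodes a small regulator of the Na,K-ATPase. C1qtnf3 (chromosome 15, 10952332 to 10980150, plus strand) encodes a secreted protein of the C1q and TNF related family.

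The 4-marker cells made up a larger share of the E15.5 than of the P1 libraries in the counts as deposited. They were 1137 of 5405 eligible cells in the E15.5 maxillary library (21.0% [19.96, 22.1]), 418 of 3030 in the E15.5 mandibular (13.8% [12.6, 15.1]), 326 of 8170 in the P1 maxillary (3.99% [3.58, 4.44]) and 260 of 4007 in the P1 mandibular library (6.49% [5.75, 7.30]). The rule counts UMIs, so a deeper cell meets it more easily, and the median UMIs of eligible cells were 10168, 13833.5, 4373 and 11310 in the same order. A random draw of 2000 UMIs from every cell, with the rule applied to the draw, gave shares of 4.79% [4.24, 5.39], 1.90% [1.44, 2.47], 1.87% [1.55, 2.22] and 0.965% [0.694, 1.31]. This left out 539, 518, 2676 and 688 kept cells with fewer UMIs. The order of the P1 jaws turned over with thinning, and the E15.5 mandibular and P1 maxillary shares then lay within each other's interval. The E15.5 maxillary library had the highest share either way. Without the shared barcodes in either P1 library, the P1 maxillary share was 2.42%, and with them in both the P1 mandibular share was 4.59%. The summed level of the 4 genes over all eligible cells was 391, 197, 128 and 118 CPM. It does not depend on the limit on the 4 markers, but the other limits per cell still choose the eligible cells. Immune cells served as a measure of free RNA: 10.8%, 5.20%, 3.91% and 4.38% of them had at least 1 UMI of the 4 genes, with median depths of 9672.5, 12793, 2956.5 and 7427 UMIs. Only 10, 2, 0 and 3 of the 454, 269, 486 and 457 immune cells reached 3 UMIs from 2 of the genes.

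**Figure D1:**
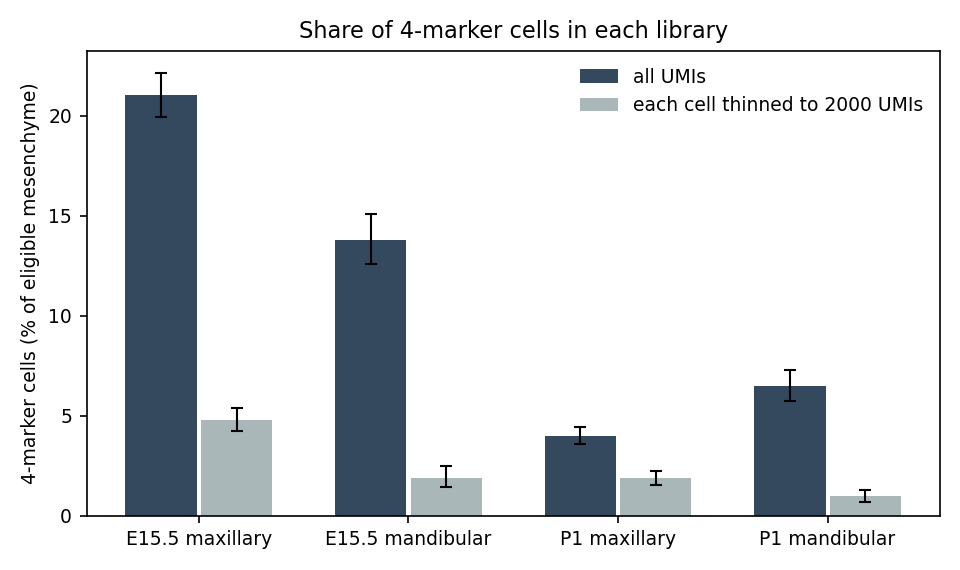
4-marker cells as a percentage of the eligible mesenchyme (y axis) in each of the 4 libraries (x axis), with all UMIs (dark bars) and with each cell thinned to 2000 UMIs (light bars). Error bars are exact 95% binomial intervals. The E15.5 maxillary library is highest in both, at 21.0% and 4.79%, and thinning lowers every share.

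C1qtnf3 supplied most of the marker UMIs in every library. Its level in the 4-marker cells was 723 CPM in the E15.5 maxillary, 425 in the E15.5 mandibular, 714 in the P1 maxillary and 469 in the P1 mandibular library. Bmper stood at 185, 134, 237 and 114 CPM, Bmp3 at 62.9, 62.6, 133 and 120 CPM, and Fxyd7 at 77.0, 68.6, 49.7 and 31.7 CPM in the same order. Most 4-marker cells showed only 2 of the 4 genes: 70.6%, 80.9%, 77.6% and 89.2% of them. All 4 genes were seen together in 1.58%, 0.718%, 2.15% and 0.769%. Among these pairs, C1qtnf3 with Bmp3 was the most common in 3 libraries, at 23.1% (E15.5 maxillary), 34.0% (P1 maxillary) and 43.1% (P1 mandibular) of the 4-marker cells, and Bmper with C1qtnf3 in the E15.5 mandibular library, at 21.5%.

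The border of the rule is not a gap. Exactly 3 marker UMIs from 2 or more genes were found in 134, 59, 71 and 52 cells, and 2 UMIs from 2 genes, just outside the rule, in 134, 77, 96 and 53 cells. Another 716, 420, 363 and 358 cells had 3 or more UMIs from a single marker gene and stayed outside. Postn, which encodes the matrix protein periostin, stood at 1397, 844, 1385 and 2269 CPM in the cells just inside and at 1302, 895, 1361 and 1895 CPM in those just outside.

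Other genes known from the dental follicle were compared to check the name. Of 10 such genes on a list kept apart from the 4 markers, 6 reached 50 CPM on the higher side in every library, 3 of these were higher than in other mesenchyme in all 4 libraries and none by 2-fold, against 18.6% and 0.306% of all genes compared. Their median log2 ratio was 0.59, against -0.02 over all 3266 genes outside the rule that reached 50 CPM in one of both populations in every library. Postn had 1210, 960, 1544 and 2895 CPM in the 4-marker cells against 995, 690, 488 and 496 CPM in other mesenchyme, log2 ratios of 0.28, 0.48, 1.66 and 2.54. Its level in the 4-marker cells exceeded that of other mesenchyme in each library, with a ratio above 2-fold at P1 only. Connective tissue fibroblasts, picked by Dpt and Clec3b, had as much or more Postn in all libraries except the P1 mandibular, with 1233, 1401, 1655 and 2306 CPM. Aldh1a2, which makes retinoic acid, was at 75.2, 82.8, 42.4 and 67.0 CPM against 39.1, 61.9, 13.6 and 31.8 CPM. It was under 50 CPM in the P1 maxillary library and so was not among the 6 genes counted above. Pth1r, the receptor through which PTHrP acts on the follicle, was at 65.6, 118, 76.8 and 54.2 CPM against 56.5, 36.1, 38.4 and 37.8 CPM. Igfbp3, an IGF-binding protein, was lower than in other mesenchyme at E15.5 (103 and 156 against 149 and 217 CPM) and higher at P1 (230 and 292 against 68.5 and 115 CPM). Vcam1, an adhesion molecule of follicle cells, stayed at 18.0 to 34.1 CPM, and Gli1, a Hedgehog target, at 17.1 to 25.7 CPM. These genes bear out the follicle name only in part, and the cells are described by their rule.

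Against other mesenchyme, 10 of the 3266 genes (0.306%) were at least 2-fold higher in the 4-marker cells of all 4 libraries, and 1 gene (0.0306%) was at least 2-fold lower in all 4. The higher genes were Itgbl1, Inhba, Khdrbs2, Lgr5, Aspn, Eya1, Man1a, Sox6, Chodl and Kcnma1, and the lower gene was Sorcs1. As the rule used this contrast, nothing is read from these counts. The number of higher genes was 20 without the P1 mandibular library and 6 when shared barcodes were left out of both P1 libraries, and 3 of those 6 were among the 10: Itgbl1, Inhba and Khdrbs2. Without the shared barcodes the smallest log2 ratio was 1.79 for Itgbl1, 1.74 for Inhba, 1.25 for Khdrbs2, 0.92 for Lgr5 and 0.44 for Aspn, and Chodl was lower than in other mesenchyme in 1 library at least (-0.18). The ratio of Sorcs1 nearest to 0 was then -0.62.

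Itgbl1, on chromosome 14 from 123659971 to 123975618, encodes a secreted integrin beta-like protein and had the largest ratios. It stood at 169, 95.2, 213 and 117 CPM in the 4-marker cells and at 18.7, 7.01, 11.5 and 6.88 CPM in other mesenchyme, log2 ratios of 3.18 [3.03, 3.33], 3.76 [3.50, 4.04], 4.22 [4.05, 4.39] and 4.09 [3.85, 4.34]. At 2000 UMIs per cell, 18.1%, 12.5%, 24.3% and 14.7% of the 4-marker cells had a UMI of Itgbl1, against 2.96%, 1.07%, 3.03% and 1.17% of other mesenchyme. With all UMIs the shares were 40.3%, 24.9%, 39.6% and 30.4% of the 4-marker cells, 6.95%, 2.22%, 4.46% and 2.80% of other mesenchyme and 2.20%, 0.372%, 1.65% and 0.438% of immune cells. The 4-marker cells thus stood above both the other mesenchyme and the free RNA level in each library.

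Lgr5, the R-spondin receptor that amplifies Wnt signals, was at 163, 86.9, 134 and 53.0 CPM in the 4-marker cells against 66.3, 31.4, 17.4 and 10.9 CPM, log2 ratios of 1.30, 1.47, 2.95 and 2.28. Inhba, the subunit of activin A, was at 164, 81.4, 96.0 and 75.2 CPM against 43.1, 24.4, 18.0 and 9.62 CPM. The maxillary level exceeded the mandibular one at each stage for both genes. Aspn, which encodes asporin, a small leucine-rich proteoglycan of the periodontal ligament, was the most abundant of the 10. Its levels were 754, 551, 1257 and 1056 CPM against 317, 228, 190 and 206 CPM, log2 ratios of 1.25 and 1.27 at E15.5 and 2.73 and 2.36 at P1, and the P1 maxillary ratio was 0.44 without the shared barcodes. Eya1, a transcriptional coactivator of craniofacial mesenchyme, was at 149, 74.9, 158 and 59.4 CPM against 56.5, 34.8, 32.4 and 14.2 CPM. Sox6, a transcription factor of cartilage and other tissues, was at 196, 319, 303 and 144 CPM against 74.9, 92.6, 112 and 68.4 CPM. Khdrbs2, an RNA-binding protein, and the potassium channel subunit Kcnma1 had smallest log2 ratios of 1.52 and 1.00. Chodl, a membrane lectin, and Man1a, a mannosidase of N-glycan processing, had smallest log2 ratios of 1.03 and 1.09, and that of Man1a turned to -0.10 with thinning. Tenm1 and Dipk2a followed just under 2-fold, with smallest log2 ratios of 0.94 and 0.91, the latter -0.30 with thinning.

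Sorcs1, a sorting receptor, was at 19.4, 14.8, 24.9 and 27.1 CPM in the 4-marker cells against 65.4, 57.1, 118 and 77.1 CPM, log2 ratios between -2.24 and -1.51. The pericyte gene Rgs5 (log2 -0.66, -1.44, -0.76 and -1.89) and the lipid carrier gene Apoe (-0.63, -0.92, -1.63 and -1.11) were lower in each library without passing 2-fold in all. With thinning to 2000 UMIs the highest of the 4 ratios turned to 1.28 for Rgs5 and 0.90 for Apoe. Thinning left 55 E15.5 mandibular and 41 P1 mandibular 4-marker cells of 2000 UMIs each, and a count of 0 was set to 3 UMIs in ratios. Ratios at that depth can thus rest on few UMIs, and those that turned give no firm direction. Fign, Limch1, Ank3 and Hspb1 were also lower in each library without passing 2-fold in all, with ratios nearest to 0 between -0.98 (Fign) and -0.62 (Hspb1), and they stayed lower with thinning. Limch1 changed sign without the shared barcodes, and Fign without the cells with markers of other tissues.

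**Figure D2:**
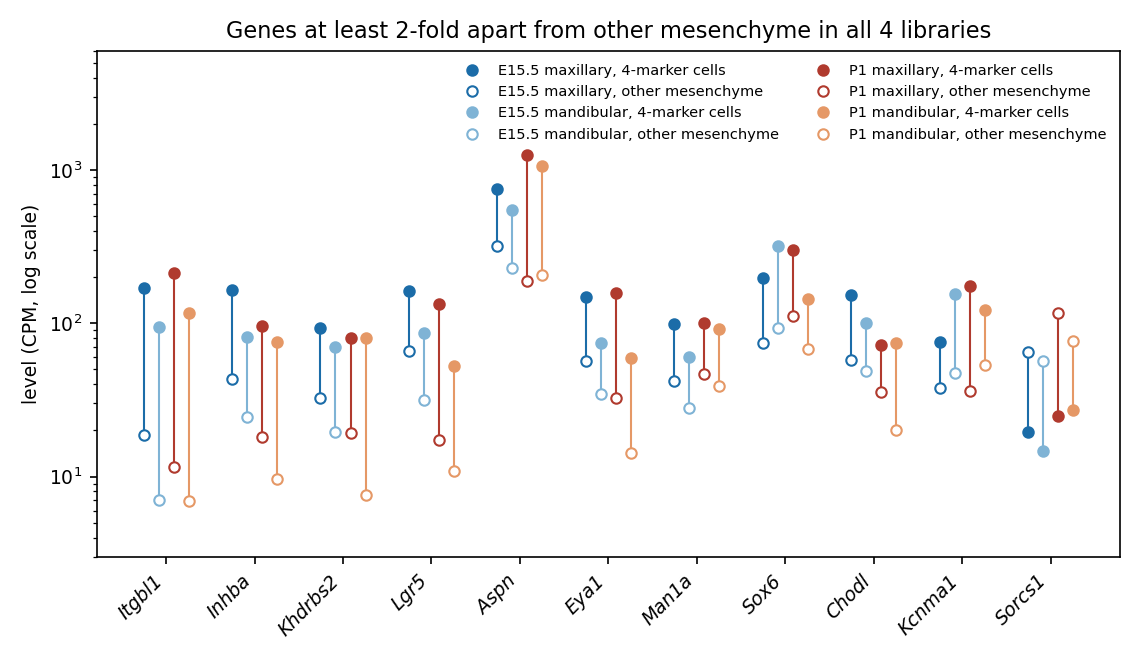
Levels in CPM (y axis, log scale) of the 11 genes at least 2-fold apart in all 4 libraries, in 4-marker cells (filled points) and in other mesenchyme (open points), joined by a line for each library. Itgbl1 has the longest lines, from 6.88 to 18.7 CPM in other mesenchyme up to 95.2 to 213 CPM in 4-marker cells, and Sorcs1 alone is turned over.

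Runx2, the transcription factor that bone lineages require, separated the 4-marker cells from fibroblasts more than from other mesenchyme. Its levels were 724, 487, 1012 and 385 CPM in the 4-marker cells, 298, 164, 245 and 239 CPM in other mesenchyme and 25.2, 6.50, 22.9 and 27.0 CPM in fibroblasts. Osteoblasts, picked by Ibsp and Bglap, had Runx2 at 1967 and 1542 CPM in the embryonic libraries and at 570 and 583 CPM in those of pups. Sp7, which acts after Runx2 in osteoblasts, was at 13.7, 18.7, 42.1 and 18.0 CPM in the 4-marker cells against 67.9, 123, 127 and 131 CPM in osteoblasts. Spp1, the gene of osteopontin, was at 2.90 to 12.8 CPM in the 4-marker cells and at 885 to 3775 CPM in osteoblasts. The rule itself limited Ibsp and Bglap, so the contrast of late bone genes is in part set by it.

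Against papilla cells, osteoblasts and fibroblasts of the same library, 12 comparisons in all, 1 of the 2887 genes outside the rule with at least 50 CPM in the 4-marker cells of every library was at least 2-fold higher in each comparison. This was Itgbl1, with a smallest log2 ratio of 1.16, against E15.5 mandibular papilla cells (42.5 CPM). Tendon and ligament cells were not among the groups compared. Chodl just missed 2-fold in the same comparison, with 50.5 CPM in the papilla cells and a fold of 1.99. Lgr5 was nearest to fibroblasts, with a log2 ratio of 0.82 in the P1 maxillary library and at least 1.49 in every other comparison. Inhba was at 146 and 127 CPM in papilla cells at E15.5, below and above its levels in the 4-marker cells of the same libraries, and at 12.3 and 12.4 CPM there at P1. Foxp2, a forkhead repressor, Eya1 and Khdrbs2 also stood above all similar cells, with smallest log2 ratios of 0.35, 0.55 and 0.33. The papilla gene Crym was at 6.15, 10.2, 1.91 and 5.48 CPM in the 4-marker cells, against 95.7, 122, 30.6 and 63.7 CPM in papilla cells, which were picked by it among other genes. The whole list of 7 papilla genes summed to 226, 104, 213 and 135 CPM in the 4-marker cells and to 209, 97.8, 241 and 180 CPM in other mesenchyme, with Lhx8 the most abundant in the 4-marker cells (112, 43.5, 104 and 55.7 CPM). Of the 4-marker cells, 4.49%, 1.67%, 2.45% and 3.08% also met the papilla limits and 4.31%, 4.31%, 12.3% and 20.8% the fibroblast limits.

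The 4-marker cells were not uniform. Clustering them within each library, without the genes of the rule, gave 10, 8, 6 and 7 clusters. In the E15.5 libraries and the P1 maxillary library, 1 cluster each had the highest Itgbl1 level of its library: 268 E15.5 maxillary cells at 394 CPM, 55 E15.5 mandibular cells at 661 CPM and 59 P1 maxillary cells at 671 CPM. These cells also had Runx2 at 991, 945 and 1251 CPM, Postn at 1977, 1529 and 2539 CPM and Cntn6, a neural adhesion molecule, at 986, 885 and 488 CPM. The E15.5 clusters shared 4 of their 10 leading genes, Cntn6, Cpa6, Plppr4 and Plppr5, and Cpa6, a carboxypeptidase, also led the P1 maxillary cluster. In the P1 mandibular library the highest Itgbl1 level, 368 CPM, was in a cluster of 55 cells with only 28.3 CPM of Runx2. The same 55 cells had 6691 CPM of the tendon gene Tnmd, and Itgbl1 stood at 18.5 to 114 CPM in the other P1 mandibular clusters. A second kind of cluster had the highest Runx2 level with less Postn. It held 119 E15.5 maxillary cells with Runx2 at 1658 CPM and Postn at 669 CPM, 48 E15.5 mandibular cells with 1402 and 499 CPM, and 94 P1 maxillary cells with 1998 and 767 CPM. In the P1 mandibular library 44 cells had Runx2 at 1963 CPM and Postn at 1694 CPM. Tnfsf11, the signal RANKL that drives osteoclast formation, was among the leading genes of the E15.5 maxillary one.

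Other clusters carried markers of other tissues. Tnmd and Scx, genes of tendon and ligament cells, led a tendon and ligament-like cluster of 57 E15.5 maxillary cells (Tnmd 1838 CPM, Scx 357 CPM) and one of 73 E15.5 mandibular cells (1334 and 491 CPM), which shared 7 of 10 leading genes. In the P1 mandibular library, 55 cells had 6691 CPM of Tnmd and 24 had 2534 CPM, and these clusters stayed unnamed, since 1 listed tendon marker and 1 chondrocyte marker stood among the 10 leading genes of the first and no listed tendon marker among those of the second, although all 5 tendon markers were detected in each. Clec3b and Mfap5, genes of connective tissue fibroblasts, led a fibroblast-like cluster of 90 E15.5 maxillary cells, and Ly6a and Pi16 one of 35 P1 mandibular cells with 2429 CPM of Mfap5. Col2a1 and Col9a1 led chondrocyte-like clusters of 13 E15.5 maxillary and 56 E15.5 mandibular cells. The muscle genes Ttn, Actc1 and Mylpf led an unnamed cluster of 51 E15.5 mandibular cells. Cell cycle genes led clusters of 163, 34, 18 and 21 cells, with Mki67 at 495, 541, 394 and 437 CPM.

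**Figure D3:**
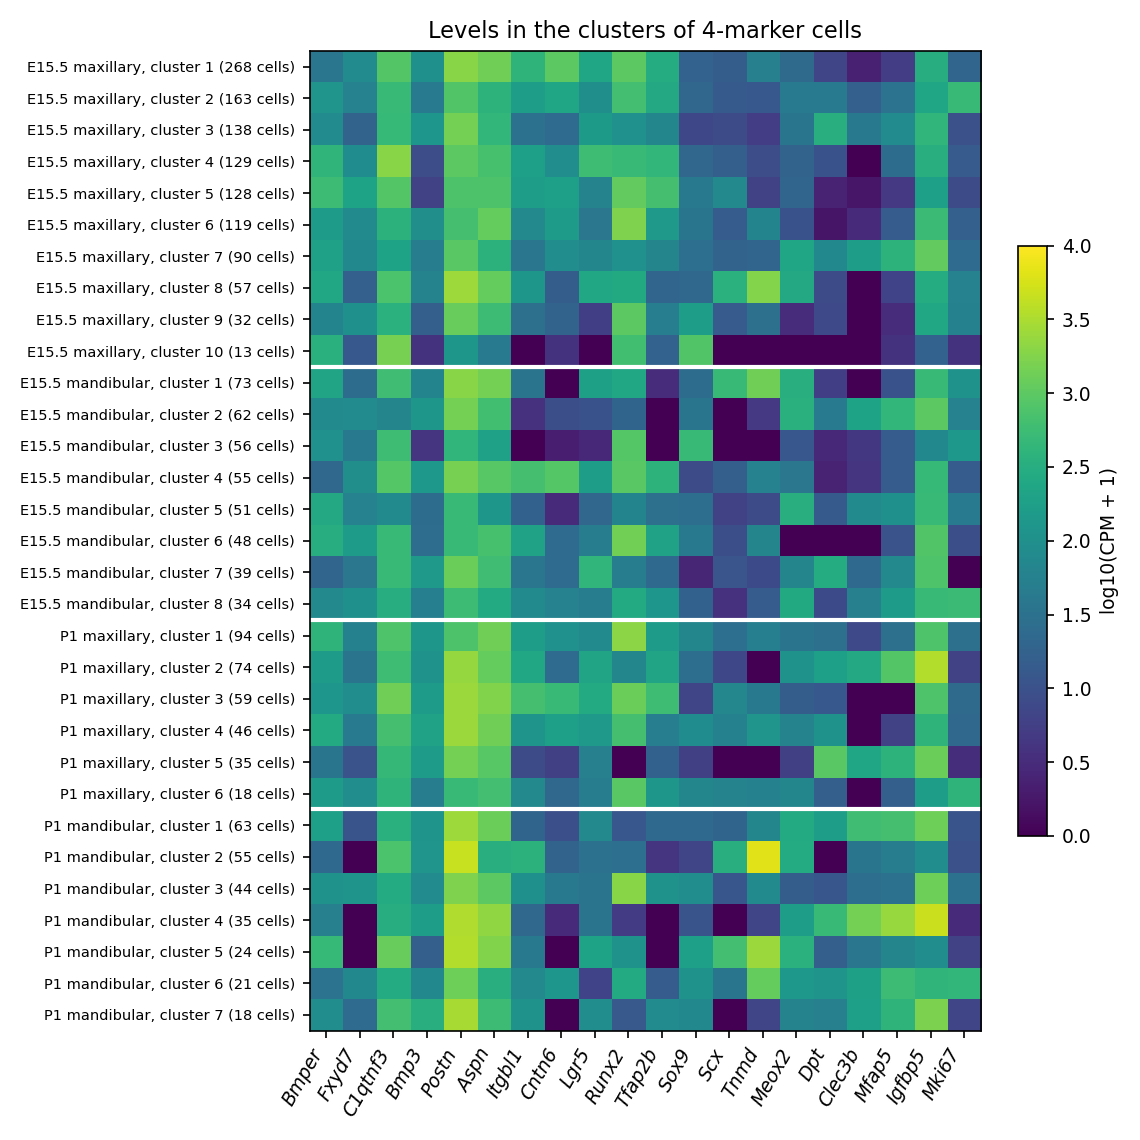
Level of 20 genes (columns) in the 31 clusters of 4-marker cells (rows, with the number of cells), as log10 of CPM plus 1. White lines part the libraries. Itgbl1 and Cntn6 peak together in 3 libraries, Runx2 is highest in P1 maxillary cluster 1 (1998 CPM) and P1 mandibular cluster 3 (1963 CPM), and Tnmd is brightest in P1 mandibular cluster 2.

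Summed levels of whole marker lists differed between the libraries. The 5 tendon and ligament genes summed to 287, 491, 223 and 2867 CPM in the 4-marker cells against 127, 204, 61.6 and 309 CPM in other mesenchyme. Tnmd was the most abundant in all libraries except the P1 maxillary, where Thbs4 was, and none of the 5 was at 0. The 6 fibroblast genes summed to 204, 282, 680 and 1728 CPM against 281, 303, 85.5 and 349 CPM, with Dpt (E15.5 maxillary) or Mfap5 (the other libraries) on top and none at 0. The 5 chondrocyte genes summed to 253, 635, 91.8 and 241 CPM against 41.1, 33.6, 178 and 147 CPM. Among these, Matn1 was at 0 in all libraries except the E15.5 maxillary. The 5 muscle genes stayed at 15.9 to 73.9 CPM, the 5 endothelial genes at 8.53 to 14.7 CPM and the 6 immune genes at 14.0 to 58.5 CPM. The 5 erythroid genes, led by Hbb-bs, summed to 6628, 9814, 1815 and 5646 CPM against 13669, 14348, 2694 and 5955 CPM in other mesenchyme. All 3 erythroid genes compared were lower at P1 in both jaws (median log2 -1.42) and lower in the maxillary cells at both stages (-1.11), against 45.5% and 23.1% of all genes compared, and their part in those contrasts was not tested. At least 2 genes of the tendon and ligament list were seen in 22.9%, 30.6%, 19.6% and 49.6% of the 4-marker cells, and of the fibroblast list in 18.9%, 31.8%, 32.5% and 49.2%. The P1 mandibular library had the highest share for both lists. At least 2 papilla genes were seen in 45.2%, 23.0%, 29.8% and 22.3%, and at least 2 genes of any of 7 lists for other cells (papilla, tendon and ligament, fibroblast, chondrocyte, pericyte, muscle, Schwann lineage) in 75.1%, 81.6%, 69.9% and 95.4%. Without these cells, 16 genes were higher and 16 lower at P1, and 31 higher and 13 lower in the maxillary cells.

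Between the stages, 30 of 3683 genes (0.815%) were at least 2-fold higher at P1 in the 4-marker cells of both jaws and 37 (1%) at least 2-fold lower. Fibroblast markers were among the higher ones. Mfap5, a microfibril protein, went from 56.4 to 279 CPM in the maxillary and from 109 to 636 CPM in the mandibular molar, log2 ratios of 2.30 [2.16, 2.44] and 2.55 [2.43, 2.67]. In other mesenchyme the log2 ratios of Mfap5 were -0.72 and 0.28. Within the P1 maxillary cells Mfap5 stood at 858 and 384 CPM in clusters of 74 and 35 cells and at 0 to 29.5 CPM in the other 4 clusters. Clec3b, which encodes tetranectin, went from 24.4 to 98.5 CPM and from 50.03 to 410 CPM. Dpt, which encodes dermatopontin, went from 59.5 to 191 and from 33.9 to 136 CPM. Of the 6 fibroblast markers 4 had enough signal to compare, all 4 were higher at P1 in both jaws, against 32.2% of all genes compared, and Mfap5, Clec3b and Dpt passed 2-fold. In the P1 maxillary cells without a shared barcode, Dpt stood at 57.9 CPM and Clec3b at 2.23 CPM, both below the E15.5 maxillary level. The maxillary rise of Fndc1, Lpl and Plppr1, named below, was not seen in those cells either. Igfbp5, an IGF-binding protein, was the most abundant of the genes named here, at 380 and 1444 CPM in the maxillary and 520 and 1424 CPM in the mandibular molar. The fibronectin domain protein Fndc1 and the lipase Lpl had smaller log2 ratios of 2.08 and 1.78. The stress-induced factor Atf3, the channel Trpm3, the protease Adamts19 and Plppr1 had smaller log2 ratios of 1.34, 1.61, 1.56 and 2.23. Without the cells that carried at least 2 genes of a list for another tissue (fibroblasts among them), which left 12 P1 mandibular cells, the smaller log2 ratio was -0.52 for Mfap5, -0.85 for Clec3b, -0.29 for Lpl and -0.25 for Atf3. Mfap5 and Clec3b are themselves on the fibroblast list, so their fall was in part set by this removal.

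All 16 genes of a list of matrix proteins were higher at P1 in both jaws, as were 32.2% of all genes compared, and none passed 2-fold in both, with a median log2 ratio of 0.78 against -0.07 over all genes compared. Dcn, which encodes decorin, went from 1229 to 2086 CPM in the maxillary and from 1141 to 3650 CPM in the mandibular molar. Among 13 collagen genes, 10 were higher in both jaws and none passed 2-fold in both, and Col14a1, a fibril-associated collagen, went from 213 to 357 and from 290 to 1653 CPM. Rspo2 and Rspo3, both R-spondins, parted: Rspo2 had log2 ratios of 2.01 and 1.01 and Rspo3 of -1.46 and -1.41. In the P1 maxillary cells with a shared barcode Rspo2 stood at 149 CPM and Rspo3 at 22.0 CPM. In those without one the levels were 22.3 and 91.2 CPM, so neither the maxillary rise of Rspo2 nor the maxillary fall of Rspo3 was seen there. Sostdc1, an antagonist of BMP and Wnt signals, was lower at P1, from 597 to 232 CPM and from 213 to 68.5 CPM.

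Genes of dividing cells were among those lower at P1. All 6 cell cycle genes with enough signal were lower in both jaws, against 45.5% of all genes compared, and 3 of them passed 2-fold, against 1%. Top2a, the topoisomerase of mitosis, went from 235 to 88.6 CPM and from 240 to 100.5 CPM, and Birc5 and Tyms also passed 2-fold. Pclaf, which binds the replication clamp, went from 197 to 69.2 and from 227 to 36.8 CPM. In the P1 maxillary cells with a shared barcode Top2a and Pclaf stood at 70.7 and 51.4 CPM. In those without one they stood at 196 and 176 CPM, so little of the maxillary fall was seen there. The kinetochore gene Spc24, Hmmr and the histone gene Hist1h2ae had ratios nearest to 0 of -1.45, -1.42 and -1.48. With thinning to 2000 UMIs those of Spc24 and Hmmr turned to 0.84 and 0.42. Thinning left 55 E15.5 mandibular and 41 P1 mandibular 4-marker cells, so these ratios can rest on few UMIs and give no firm direction. Igfbp2, another IGF-binding protein, went from 377 to 119 and from 140 to 44.5 CPM. Hapln1, which links hyaluronan to proteoglycans, went from 111 to 26.1 and from 261 to 29.2 CPM, while in other mesenchyme it went from 12.3 to 168 and from 6.16 to 166 CPM. At E15.5 Hapln1 stood at 1072 CPM in the 56 chondrocyte-like mandibular cells and at 10.1 CPM in the other mandibular 4-marker cells. Without the cells with markers of other tissues it stood at 18.8 and 16.9 CPM at E15.5 and at 13.8 and 53.3 CPM at P1, so the mandibular direction turned, as the smaller ratio did with thinning (0.39). Cntn6 also moved in opposite directions, with log2 ratios of -1.42 and -1.77 in the 4-marker cells and 1.73 and 3.13 in other mesenchyme. The teneurin Tenm2 was lower at P1 in both populations, as was the transcript Gm47283, which lies on chromosome Y, where the sex of the pooled animals and the stage cannot be told apart.

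The maxillary stage difference was seen in the cells with a shared barcode and much less in the others. Of the 30 genes higher at P1, all 30 were at least 2-fold above the E15.5 maxillary level in the 216 P1 maxillary 4-marker cells with a shared barcode, and 1 was in the 110 cells without one. Their median log2 ratios were 1.46 and 0.03. The cells with a shared barcode supplied most of the UMIs of the pooled P1 maxillary level by which these genes were chosen, so the counts in those cells were nearly fixed by the choice. Of the 37 lower genes, all 37 were at least 2-fold lower in the cells with a shared barcode and 2 in those without, with medians of -1.75 and -0.42. Clec3b stood at 115 CPM in the cells with a shared barcode and at 2.23 CPM [0.0563, 12.4], from 1 UMI, in those without, Igfbp5 at 1608 and 463 CPM, Mfap5 at 310 and 91.2 CPM, and Igfbp2 at 86.0 and 314 CPM. With the shared barcodes left out of both P1 libraries, 2 genes were higher and 2 lower at P1 in both jaws. The P1 mandibular cells compared here held no shared barcode. Why the cells with and without a shared barcode differ was not tested.

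**Figure D4:**
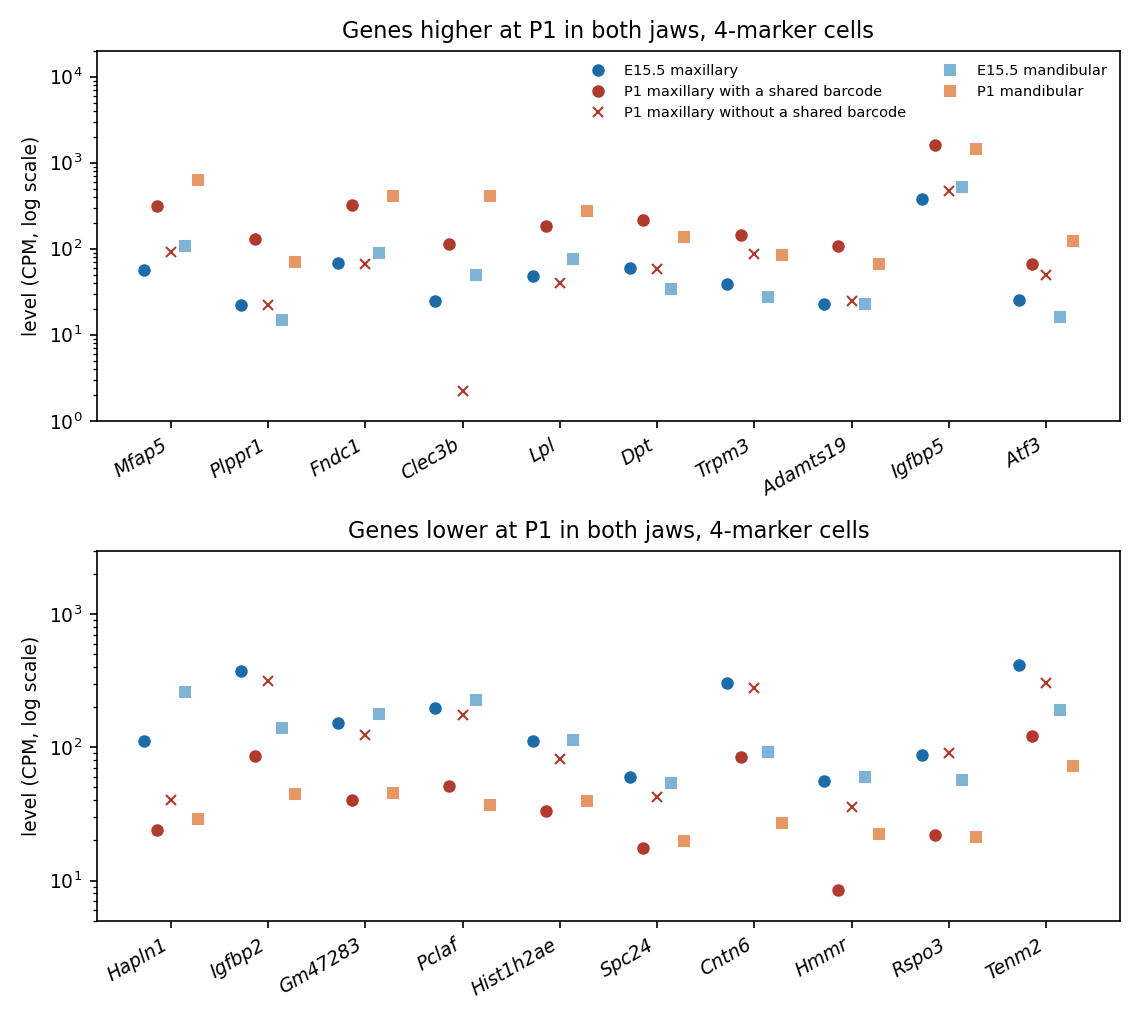
Levels in CPM (y axis, log scale) of the 10 genes named as higher (top) and lower (bottom) at P1, in the 4-marker cells of both stages and jaws. The P1 maxillary cells are split by whether their barcode is also in the P1 mandibular library. Crosses, the cells without a shared barcode, lie nearer to the E15.5 maxillary points than the filled red points do, except for Clec3b.

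Between the jaws, 52 of 3537 genes (1.47%) were at least 2-fold higher in the maxillary 4-marker cells at both stages and 23 (0.65%) at least 2-fold lower. Transcription factors of the tooth field were among the higher ones. Msx1, which tooth mesenchyme needs to pass the bud stage, was at 387 CPM in the maxillary and 122 CPM in the mandibular library at E15.5 and at 210 and 67.6 CPM at P1. Pax9, another such factor, was at 192 and 67.9 CPM and at 171 and 60.3 CPM. Tfap2b, a neural crest factor, was at 248 and 70.5 CPM at E15.5 and at 191 and 31.1 CPM at P1. Of 10 jaw and tooth factors compared, 8 were higher in the maxillary cells at both stages, against 38.3% of all genes compared, Msx1 and Pax9 by 2-fold. The mesodermal homeobox gene Meox2 and Ebf2, a factor of mesenchymal and fat precursor cells, were lower by 2-fold. Meox2 was at 52.3 and 172 CPM at E15.5 and at 50.4 and 197 CPM at P1, and its log2 ratios of -1.35 and -1.87 in other mesenchyme had the same sign. Without the cells with markers of other tissues, Meox2 stood at 37.4 and 17.8 CPM at P1, the other way round. The latter value came from 12 cells, too few to give a firm direction. In the same cells Pax9 stood at 144 and 142 CPM and Msx1 at 301 and 160 CPM, both under 2-fold at P1.

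Wnt5a, a ligand of noncanonical Wnt signaling, Lef1, a factor and target of canonical Wnt signaling, and Sostdc1 were also higher in the maxillary cells. Wnt5a was at 185 and 83.6 CPM at E15.5 and at 244 and 91.6 CPM at P1, and Lef1 at 76.8 and 25.4 CPM and at 80.0 and 24.7 CPM. Without the cells with markers of other tissues, Wnt5a stood at 222 and 249 CPM at P1, so the maxillary level was no longer higher. The latter value came from 12 cells, too few to give a firm direction. Gria2, a glutamate receptor subunit, had the largest smaller ratio, with 52.3 (maxillary) and 7.19 CPM (mandibular) in embryos and 64.1 and 3.35 CPM in pups. Omd, a proteoglycan of mineralized tissue, was at 183 and 51.7 CPM and at 295 and 52.1 CPM. In other mesenchyme its log2 ratios were 0.88 at E15.5 and -0.22 at P1. Lrrtm4, a synaptic adhesion molecule, the chemokine Cxcl5 and Cntn6 had smaller log2 ratios of 1.81, 1.74 and 1.71. With thinning to 2000 UMIs, which left 41 P1 mandibular 4-marker cells, the smaller ratio turned to -0.083 for Gria2, -0.15 for Cxcl5 and -0.26 for Cntn6.

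Among the genes lower in the maxillary cells, Hpse2, a relative of heparanase, had the largest smaller ratio. It was at 6.57 and 75.05 CPM at E15.5 and at 5.74 and 65.2 CPM at P1. Its E15.5 mandibular level was 618 CPM in a cluster of 48 cells and 24.0 CPM in all other 4-marker cells. Mylpf, a light chain of fast skeletal muscle myosin, was at 11.9 and 123 CPM and at 12.4 and 86.5 CPM. In the E15.5 mandibular library it stood at 837 CPM in the cluster of 51 cells led by muscle genes and at 14.3 CPM in all other 4-marker cells. Ccn3, a matricellular protein, was at 11.2 and 51.0 CPM and at 29.3 and 181 CPM. Thbs4, a tendon matrix protein, was at 70.9 and 161 CPM and at 89.0 and 404 CPM. Pdzrn4 and Itih5, a hyaluronan-binding protein, had log2 ratios of -1.78 and -1.57 at E15.5 and -1.76 and -1.87 at P1. In the P1 mandibular library Pdzrn4 stood at 1825 CPM in 44 cells, the cluster with the highest Runx2 level, and at 13.6 CPM in all other 4-marker cells. With thinning the smaller log2 ratio turned to 2.44 for Pdzrn4 and to 0.42 for Ccn3. Col2a1, Col18a1, Clec3b and Sema3c were also at least 2-fold lower at both stages. Col23a1, on the same list of collagens as Col18a1, was at least 2-fold higher in the maxillary cells at both stages. Tendon, fibroblast and chondrocyte lists summed higher in the mandibular than in the maxillary 4-marker cells at each stage.

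The jaw difference was also split by whether the barcode of a P1 maxillary cell was shared. The genes were chosen on a pooled level that came mostly from cells with a shared barcode, so their counts in those cells were nearly fixed by the choice. Of the 52 higher genes, 47 were at least 2-fold above the P1 mandibular level in the cells with a shared barcode and 41 in those without. Of the 23 lower genes, 22 and 20 were at least 2-fold below it. With the shared barcodes left out of both libraries, 56 genes were higher and 24 lower at both stages, and 37 and 20 of them were among the 52 and 23.

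**Figure D5:**
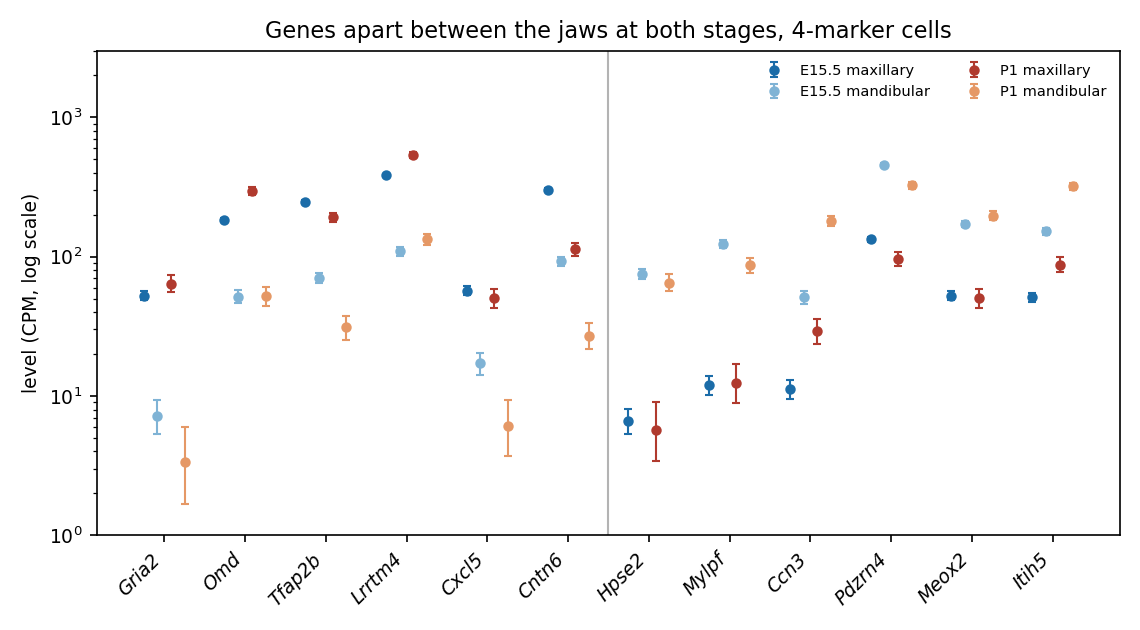
Levels in CPM (y axis, log scale) of the 12 genes named for the difference between jaws, in the 4-marker cells of each library, with exact 95% Poisson intervals. Left of the grey line both maxillary points lie above both mandibular points, as for Tfap2b (248 and 191 against 70.5 and 31.1 CPM), and right of it below. These are the levels with all UMIs.

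Signals known from the follicle were also compared with other mesenchyme, where 0.306% of all genes were 2-fold higher and 0.0306% 2-fold lower in all libraries, so that a short list with none past 2-fold is near the background. Csf1, which recruits osteoclast precursors, was at 30.9, 22.5, 30.0 and 43.8 CPM in the 4-marker cells and at 21.7, 19.9, 24.3 and 28.2 CPM in other mesenchyme. Tnfsf11 was at 13.3, 6.77, 10.5 and 4.87 CPM against 3.66, 2.35, 1.39 and 1.58 CPM, under the level set for comparison. Cxcl12, a chemokine of stromal cells, was at 271, 197, 384 and 148 CPM against 184, 113, 102 and 72.2 CPM. Sema3a, an axon repellent, had log2 ratios of 1.69 and 1.15 at E15.5 and of 0.20 and -0.09 at P1. Igf1, a growth factor, went the other way, with -0.33 and -0.06 at E15.5 and 2.29 and 1.50 at P1. None of the other BMP ligands reached the level for comparison with other mesenchyme. Of 9 BMP-binding proteins beside Bmper 5 were compared and none passed 2-fold, and of 8 BMP response genes 4 were compared and none passed. Id1, a direct target of BMP signaling, was at 49.2, 53.8, 57.1 and 39.0 CPM in the 4-marker cells and at 80.3, 50.5, 229 and 182 CPM in other mesenchyme. Of 4 Wnt antagonists compared, 1 was higher in all 4 libraries, against 18.6% of all genes, and none passed 2-fold, and of 7 genes of R-spondins and their receptors 2 were compared and Lgr5 passed.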

How the data were processed

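Single-cell RNA sequencing (10x Chromium 3' v3.1) covered 4 libraries of molar tooth organs. The authors deposited a table of raw UMI counts per gene and barcode for each library, made with Cell Ranger 7.0.1 on mm10 and not normalized. The cell filters of the study were not part of these tables. Here barcodes were filtered and chosen by the stated rule, and counts were summed per library and group of cells and scaled to CPM. Ratios of at least 2 with at least 50 CPM on the higher side, in all libraries or pairs compared, were counted over all genes outside the rule. With 1 library per group no test was run. Doublets were not removed, and leaving out the highest Scrublet scores served as an alternative. These scores marked 11.2% (E15.5 maxillary), 10.05% (E15.5 mandibular), 16.3% (P1 maxillary) and 18.8% (P1 mandibular) of the 4-marker cells. Of all kept cells they marked 8.86%, 6.08%, 14.7% and 16.8% in the same order, a lower share in each library. Clusters came from Leiden (scanpy 1.11.5, leidenalg 0.10.2, resolution 0.5, 20 components, 15 neighbours, 1500 genes). Genes named in the text are those with the largest smaller ratio (12 and 8 against other mesenchyme, 10 per direction between stages, 6 per direction between jaws, 6 against similar cells) and genes of 33 lists, with mitochondrial, ribosomal protein and globin genes and Xist, Tsix, Ddx3y, Eif2s3y, Uty and Kdm5d not named by rank. A result that this choice of genes would include is not reported here. Genes that lead a cluster were named after their values were seen. The rule for the cells and the lists were chosen with earlier results of these data known. Positions are from GENCODE annotation of mm10, matched by gene identifier. The calculations were tested on simulated data.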

Additional observations from a re-analysis of the deposited data

Results flagged for a closer look

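Some genes changed in opposite directions in the libraries compared. These differences were not tested, as there was 1 library per stage and jaw. Tnmd had a log2 ratio of P1 over E15.5 of -1.44 in the maxillary and 3.25 in the mandibular 4-marker cells. Bmpr1b, a BMP receptor, had log2 ratios of -1.09 and 1.07 in the same order. Col9a1, a cartilage collagen, had a log2 ratio of maxillary over mandibular of -1.69 at E15.5 and 2.50 at P1.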

How the results depend on the processing

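With 1 library per stage and jaw, all comparisons lack replicates, and cells near the border of the rule enter or leave it with depth. No paired test was run: each stage and jaw had 1 library with no replicate number, and ratios were taken within each library, jaw or stage. Of the values for main results under alternatives, 68 stayed close to the reported one and 54 moved. Of those for single genes, 541 stayed close, 163 moved and 29 turned over. Causes were not tested. The removals of whole libraries, of a stage or a jaw, and of cells with markers of other tissues were chosen after seeing the data.

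A minimum of 2 marker UMIs gave 23.5%, 16.3%, 5.17% and 7.81% of eligible cells (E15.5 maxillary, E15.5 mandibular, P1 maxillary, P1 mandibular) and 6 genes higher than in other mesenchyme, and a minimum of 5 gave 16.5%, 10.3%, 2.63% and 4.22%. Thinning to 2000 UMIs gave 4.79%, 1.90%, 1.87% and 0.965%, with 2 genes lower than in other mesenchyme, 51 higher at P1 and 64 lower in the maxillary cells. Shared barcodes left out of both P1 libraries gave 2.42% in the P1 maxillary library, 6 genes higher and 0 lower than other mesenchyme, and 2 higher and 2 lower at P1. Shared barcodes kept in both gave 4.59% in the P1 mandibular library. A minimum of 20 CPM gave 28 genes higher and 7 lower than other mesenchyme, 63 higher and 100 lower at P1, and 80 higher and 46 lower in the maxillary cells. The mean of single cells gave 3 genes lower than other mesenchyme and 15 lower at P1, and leaving out the highest Scrublet scores or scaling by median ratios gave 2 lower than other mesenchyme. All other eligible cells as the reference gave 4 higher and 0 lower, and the comparison without the P1 mandibular library 20 and 3. The maxillary molar alone gave 64 higher and 64 lower at P1, and the mandibular alone 180 and 165. E15.5 alone gave 98 higher and 53 lower in the maxillary cells, and P1 alone 120 and 121. Without cells that carried at least 2 genes of a list for papilla, tendon, fibroblast, chondrocyte, pericyte, muscle or Schwann cells, the shares were 5.24%, 2.54%, 1.20% and 0.299%. Then 29 genes were higher and 6 lower than in other mesenchyme, 16 and 16 between stages, and 31 and 13 between jaws, with 12 P1 mandibular cells left.

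The following smaller log2 ratios changed sign. Without shared barcodes in both P1 libraries, these were Chodl at -0.18 and Limch1 at 0.16 against other mesenchyme. Between stages they were Plppr1 at -0.00096, Fndc1 at -0.029, Clec3b at -3.46 (from 1 UMI at P1), Lpl at -0.26, Dpt at -0.040 and Rspo3 at 0.058. The maxillary rise of Rspo2 was not seen either, with 22.3 CPM in the P1 maxillary cells without a shared barcode. With thinning the ratios that changed sign were Man1a at -0.10, Dipk2a at -0.30, Rgs5 at 1.28 and Apoe at 0.90 against other mesenchyme. Between stages they were Hapln1 at 0.39, Spc24 at 0.84 and Hmmr at 0.42, and between jaws Gria2 at -0.083, Cxcl5 at -0.15, Cntn6 at -0.26, Ccn3 at 0.42 and Pdzrn4 at 2.44. Thinning left 55 E15.5 mandibular and 41 P1 mandibular 4-marker cells, and a count of 0 was set to 3 UMIs. The thinned ratios can thus rest on few UMIs and give no firm direction. Without the cells with markers of other tissues, these were Man1a at -2.13 and Fign at 0.14 against other mesenchyme. Between stages they were Mfap5 at -0.52, Clec3b at -0.85, Lpl at -0.29, Atf3 at -0.25, Hapln1 at 1.65 and Spc24 at 0.31, and between jaws Meox2 at 1.07. The P1 levels of Wnt5a were then 222 CPM in the maxillary and 249 CPM in the mandibular cells. The P1 mandibular values rest on 12 cells, which give no firm direction for Mfap5, Meox2 or Wnt5a.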
